A study of Mus musculus with 18 samples.

Results

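The genes described here are 10 components of the Wnt pathway measured in sorted mouse mammary cells. They are 4 secreted ligands (Wnt5a, Wnt5b, Wnt6 and Wnt10a), 3 secreted antagonists (Wif1, Dkk3 and Sfrp1), and 3 feedback or target genes (Nkd1, Axin2 and Lgr5). They were picked by name, with earlier results of these data known, from the 18193 genes that the platform annotation ties to a probe set with 1 symbol. All 10 were on the array and passed the filter on low signals, as did 10916 genes in all. Each gene is represented by its brightest probe set on average over the 17 sorted arrays, and 25 probe sets name 1 of the 10 genes.

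The study profiled mouse mammary tumors and normal mammary glands after sorting by the surface proteins CD29 (the integrin beta 1 chain) and CD24 (a surface glycoprotein), in order to find the genes of tumor-initiating cells. Each of 3 tumors, numbered 1, 2 and 7, gave 4 populations: CD29H CD24H, CD29H CD24L, CD29L CD24H and CD29L CD24L, where H is high and L is low. Normal mammary epithelial cells came as CD29H CD24P (CD29 high, CD24 positive) and CD29P CD24H (CD29 positive, CD24 high) from each of 2 preparations, and as 1 CD24 low sample from preparation 2. A commercial reference RNA was on 1 further array. Tumors 1 and 2 were in transplant generation 1, and no generation is given for tumor 7. The labels name no genotype, strain or age for any group; from its published description the study is known as one of p53-null mammary tumors, and a p53 deletion would then be shared by every tumor population and absent from the normal cells. A population is a sort gate and can hold several cell types, and the gates of tumor and normal cells are named differently, so that a tumor gate and a normal gate are alike but not the same.

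Wnt ligands bind Frizzled receptors and LRP co-receptors at the cell surface, which stabilizes beta-catenin and lets it act with Tcf/Lef factors on target genes. Wnt5a and Wnt5b are known mainly for signals that do not pass through beta-catenin. Wif1 and Sfrp1 bind Wnt proteins outside the cell, Dkk3 is a divergent member of the Dickkopf family, and Axin2 and Nkd1 are induced by the pathway and dampen it. Lgr5 is a receptor for R-spondins and a Wnt target. In the mammary gland, Wnt signalling is known for the upkeep of basal stem cells.

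Promoter sequences from RefSeq (build GRCm38.p6) were found for 5 of the 10 genes, as 7 promoters, each spanning 250 bases before to 50 bases after an annotated start. They are shown for Wif1, Nkd1 and Axin2, whose tumor 7 signals lay below those of tumors 1 and 2 on every array, and for start 3 of Wnt5b, which holds a longer match. Capitals mark CTTTG, the core of the Tcf/Lef motif, searched on both strands, so that a match on the other strand shows as its reverse complement. The core motif on either strand occurred in 53.9% of the 32851 promoters of this length, and the longer CTTTGAT, which contains it, in 3.73%.
Wif1, chr10:121033754-121034053, plus strand: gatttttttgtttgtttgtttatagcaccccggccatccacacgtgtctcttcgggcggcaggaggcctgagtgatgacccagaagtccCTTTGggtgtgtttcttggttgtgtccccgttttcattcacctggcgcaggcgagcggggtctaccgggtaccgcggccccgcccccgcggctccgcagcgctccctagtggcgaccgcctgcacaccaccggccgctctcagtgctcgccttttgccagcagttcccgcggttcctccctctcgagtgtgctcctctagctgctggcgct
Nkd1, chr8:88527383-88527682, plus strand: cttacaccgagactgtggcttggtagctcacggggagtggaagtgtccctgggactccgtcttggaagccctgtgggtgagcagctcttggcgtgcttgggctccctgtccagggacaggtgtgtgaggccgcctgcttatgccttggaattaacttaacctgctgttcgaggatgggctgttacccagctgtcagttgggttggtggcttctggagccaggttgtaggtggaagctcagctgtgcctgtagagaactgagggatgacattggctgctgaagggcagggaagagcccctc
Axin2, chr11:108920099-108920398, plus strand: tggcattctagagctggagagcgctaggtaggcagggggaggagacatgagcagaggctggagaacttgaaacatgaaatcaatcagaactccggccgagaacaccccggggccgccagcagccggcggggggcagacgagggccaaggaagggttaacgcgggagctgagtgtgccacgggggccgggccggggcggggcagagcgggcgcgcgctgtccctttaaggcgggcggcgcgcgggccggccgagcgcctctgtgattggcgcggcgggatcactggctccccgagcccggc
Wnt5b, start 3, chr6:119449337-119449636, minus strand: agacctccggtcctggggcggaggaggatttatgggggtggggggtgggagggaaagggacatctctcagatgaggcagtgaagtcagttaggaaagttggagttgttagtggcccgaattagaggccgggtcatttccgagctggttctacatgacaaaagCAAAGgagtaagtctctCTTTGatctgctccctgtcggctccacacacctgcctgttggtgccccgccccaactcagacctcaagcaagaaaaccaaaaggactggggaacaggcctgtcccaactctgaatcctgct
The Wif1 window held 1 match, Wnt5b start 1 held 1 and Wnt5b start 3 held 2, of which 1 extended to the longer motif. The windows of Nkd1, Axin2, Wnt6 and Wnt5b start 2 held none. A match is a run of letters and not a binding site, and its absence says only that the letters are not in that window. The GC content was 63.0% for Wif1, 70.0% for Axin2, 58.3% for Nkd1 and 55.0% for Wnt5b start 3, against a median of 52.7% over all promoters of the table. The CG pairs numbered 25 in the Wif1 window, 31 in Axin2, 6 in Nkd1 and 7 in Wnt5b start 3, with a median of 7 over all promoters.

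Array-wide measures were as follows. The median signal lay between 71.6 and 104 units on the 18 arrays, and the number of arrays, 3 or 2 per group, limits the precision. The ratio of 3' to 5' actin probe signals, which rises when only the ends of transcripts are copied, was 14.4 to 99.3 on the tumor arrays and 3.08 to 24.7 on the normal ones. It therefore moved with tumor against normal, and its part in those comparisons was not tested. It also differed between the normal gates. In preparations 1 and 2 it was 7.09 and 3.08 for CD29H CD24P cells and 24.7 and 6.33 for CD29P CD24H cells. Its part in the normal comparison was not tested either. The basal marker list (8 genes) had a mean log2 level of 13.66 to 13.69 on the normal CD29H CD24P arrays and 7.24 to 7.35 on the CD29P CD24H arrays, and the luminal list stood at 10.10 to 10.25 and 13.32 to 13.35, as their gates would have it. The array labelled normal CD24 low went against its epithelial label: its fibroblast list stood at 14.35, its luminal list at 8.25 and its basal list at 7.97. It entered the fits but no comparison.

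Among normal cells, the Wnt genes separated the basal-type gate from the luminal-type gate. Of the 10 genes, 8 were higher in CD29H CD24P cells and 2 were lower, and all 10 passed at an adjusted p under 0.05 in limma with Benjamini-Hochberg adjustment. The background was high, since 27.4% of all 10916 genes passed in this comparison. The median difference of the 10 genes was 2.96 on the log2(signal + 32) scale. Taken without sign, the median was 2.96 for the 10 and 0.48 over all genes tested. The 10 were picked with earlier results of these data known, so this is a description. Signals of the 2 gates overlapped for none of the 10. With 2 arrays per gate such separation was common, at 64.4% of all genes. Adding 32 units before taking the logarithm shrinks differences of dim genes. In sorted bulk RNA, fewer cells of a type and less RNA per cell cannot be told apart.

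The ligands fell into opposite pairs. Wnt5a gave 502 and 414 units on the CD29H CD24P arrays of preparations 1 and 2, and 1300.4 and 1108 on the CD29P CD24H arrays. Wnt5b gave 347 and 414 units against 1624 and 1626. Both were thus higher in the luminal-type gate on each array. In limma the log2 difference was −1.34 ± 0.26 (SE, adjusted p = 0.00427, n = 2 per gate) for Wnt5a and −2.01 ± 0.25 (adjusted p = 0.000363) for Wnt5b. Wnt6 ran the other way, with 874 and 947 units in CD29H CD24P cells and 82.5 and 242 in CD29P CD24H cells. Wnt10a gave 1091 and 923 units against 8.48 and 76.6. Their differences in limma were 2.41 ± 0.39 (adjusted p = 0.00161) for Wnt6 and 3.97 ± 0.43 (adjusted p = 0.000151) for Wnt10a. The gene tables list Wnt6 and Wnt10a as neighbouring protein-coding genes, with the noncoding models Gm29539 and Gm32099 as the other entries there.

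The antagonists were all higher in the basal-type gate. Wif1, which binds Wnt proteins, gave 4026 and 3994 units in CD29H CD24P cells and 24.4 and 32.7 in CD29P CD24H cells. The difference was 6.06 ± 0.26 (95% interval 5.48 to 6.65, limma adjusted p = 1.36e-06). Dkk3 gave 1314 and 1286 units against 5.07 and 8.54, a difference of 5.10 ± 0.26 (limma adjusted p = 2.18e-06). Sfrp1, a decoy with a Frizzled-like domain, gave 855 and 824 units against 161 and 225. Its difference of 1.97 ± 0.26 (limma adjusted p = 0.000532) was the narrowest among the antagonists, and its signals still did not overlap between the gates.

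The feedback and target genes were likewise higher in the basal-type gate. Nkd1, which binds Dishevelled, gave 1318 and 1019.6 units in CD29H CD24P cells and 43.5 and 32.1 in CD29P CD24H cells, a difference of 4.10 ± 0.27 (limma adjusted p = 9.33e-06). Axin2, a scaffold of the beta-catenin destruction complex, gave 579 and 540.5 units against 103 and 83.1. Lgr5 gave 583 and 724 units against 26.1 and 30.2. The differences were 2.24 ± 0.26 (limma adjusted p = 0.000238) for Axin2 and 3.50 ± 0.28 (adjusted p = 2.68e-05) for Lgr5.

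Probe sets other than the one chosen pointed the same way in this comparison. All 15 had the sign of the chosen probe set, 10 of them passed (not the second of Lgr5, 0.52, adjusted p = 0.390 in limma), and of the 5 that were above the low-signal filter all 5 passed. Leaving out any 1 array leaves 1 gate with a lone array assumed to vary like the rest, so that calls in those fits are no test of robustness. The log2 differences of all 10 genes kept their sign. They ran from −1.47 to −1.21 for Wnt5a and from 5.96 to 6.16 for Wif1. In a single fit of all 17 sorted arrays, whose spread includes that between tumors, the calls of Wnt5a (adjusted p = 0.278), Wnt6 (0.0571) and Axin2 (0.325) were lost in limma. With the preparation number as a block all 10 passed again, against a background of 28.9%.

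**Figure D1:**
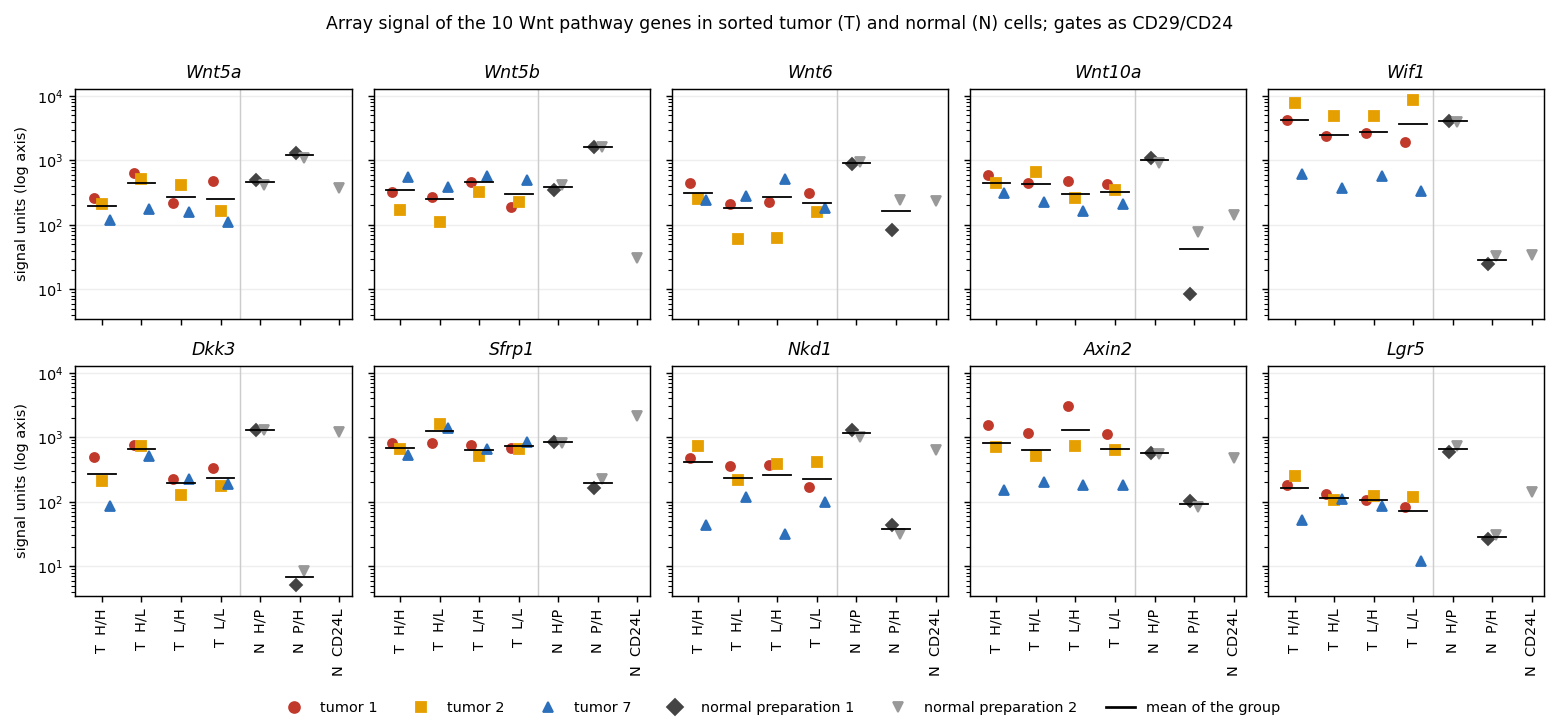
Signal of each of the 10 genes on the 17 sorted arrays (log axis, signal units), by population (T tumor, N normal, gates written as CD29/CD24, with H high, L low and P positive), with points coloured by tumor or preparation and a line at the mean of each group of 2 or 3 arrays. Wif1 lies at 3994 and 4026 units in the normal CD29H CD24P cells and at 24.4 and 32.7 in the CD29P CD24H cells, and the tumor 7 points lie low for Wif1, Nkd1 and Axin2.

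Among the 4 tumor populations no ligand passed in any comparison. Values are given below in the order CD29H CD24H, CD29H CD24L, CD29L CD24H and CD29L CD24L. Wnt5a read 258, 638, 222 and 481 units in tumor 1. It read 212, 521, 420.0 and 163 units in tumor 2, and 121, 178, 157 and 113 units in tumor 7. CD29H CD24L cells had the highest Wnt5a signal of each tumor, by 0.46 to 1.21 on the log2 scale over CD29H CD24H cells, and the groups of 3 overlapped. That difference, −0.95 ± 0.57, did not pass in limma (adjusted p = 0.765, and 0.192 with the tumor as a block).

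Wnt5b read 318, 273, 469 and 188 units in tumor 1. It read 172, 111, 328 and 225 units in tumor 2, and 551, 381, 572 and 491 units in tumor 7. CD29L CD24H cells were the highest in each tumor, and the other ligands did not share this order. Wnt6 read 451, 214, 224 and 318 units in tumor 1. It read 254, 60.7, 63.5 and 156 units in tumor 2, and 242, 277, 514 and 186 units in tumor 7. The highest Wnt6 population was CD29H CD24H in tumors 1 and 2 and CD29L CD24H in tumor 7. Wnt10a read 596, 439.6, 485 and 427 units in tumor 1. It read 444, 649, 264 and 343 units in tumor 2, and 308, 225, 163 and 212 units in tumor 7. CD29H CD24H cells had more Wnt10a signal than CD29L CD24H cells in 3 of 3 tumors, by 0.28 to 0.80 on the log2 scale, a difference of 0.59 ± 0.47 that did not pass in limma (adjusted p = 1.0, and 0.652 with the block).

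Of the antagonists, Wif1 followed the tumor and Dkk3 and Sfrp1 followed the population. Wif1 read 4243, 2369.6, 2677 and 1895 units in tumor 1. It read 7891, 4809, 4909 and 8774 units in tumor 2, and 610.0, 374, 563 and 332 units in tumor 7. Tumor 2 was the highest and tumor 7 the lowest in all 4 populations. Within each tumor Wif1 was higher in CD29H CD24H than in CD29H CD24L cells, by 0.66 to 0.83 on the log2 scale. The mean difference of 0.73 did not pass in limma, with an SE of 1.28 without the block (adjusted p = 0.972) and 0.31 with it (adjusted p = 0.234).

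Dkk3 read 499, 752, 223 and 331 units in tumor 1. It read 209, 725, 128 and 174 units in tumor 2, and 86.7, 514, 227 and 187 units in tumor 7. The CD29H CD24L signals, 514 to 752 units, lay above all 9 other tumor signals. CD29H CD24H cells were lower than CD29H CD24L cells by 1.47 ± 0.49 on the log2 scale, which did not pass in the limma fit without a block (adjusted p = 0.254) and passed with the tumor as a block (SE 0.38, adjusted p = 0.0341). CD29H CD24L cells were higher than CD29L CD24L cells by 1.44 ± 0.49 (limma adjusted p = 0.314, and 0.0441 with the block). Dkk3 was the only 1 of the 10 genes to pass in either blocked comparison, where the background was 5.08% and 4.49% of genes.

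A second Dkk3 probe set passed without the block. It read 222, 531, 200.2 and 129 units in tumor 1. It read 139, 536, 157 and 81.1 units in tumor 2, and 131, 431, 112 and 89.9 units in tumor 7. Its differences were −1.46 ± 0.33 (limma adjusted p = 0.0381) for CD29H CD24H against CD29H CD24L and 2.02 ± 0.33 (adjusted p = 0.0182) for CD29H CD24L against CD29L CD24L. Fibroblast markers moved with the same gate. The mean log2 level of the 13 fibroblast genes was 13.27 to 13.68 in CD29H CD24L cells and 9.18 to 11.76 in the other tumor populations, with no marker at 0. Of these 13 genes, 10 passed as lower in CD29H CD24H than in CD29H CD24L cells, and Fap, a fibroblast protease, ranged from 3225 to 6176 units in the latter and from 240.2 to 293 in the former. The part of fibroblasts in the Dkk3 difference was not tested.

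The blocked Dkk3 calls rested on single arrays. In tumors 2 and 7, omitting either array of the first pair, or the whole tumor, lost the first call (log2 difference −1.56 to −0.99, limma adjusted p 0.104 to 0.263). The second was lost in 12 of 15 omissions and kept only without the CD29H CD24H array of tumor 1 or 7 or the CD29L CD24H array of tumor 7 (1.22 to 1.65 over all 15, adjusted p up to 0.379). With the actin ratio as a covariate beside the block, the differences were −1.36 (adjusted p = 0.0745) and 1.33 (adjusted p = 0.0861). Without the block, the first passed when the CD29H CD24H array of tumor 1 was left out (−2.02, adjusted p = 0.0496).

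Sfrp1 read 827, 805, 748 and 680.2 units in tumor 1. It read 665, 1602, 508 and 657 units in tumor 2, and 528, 1380.4, 661 and 829 units in tumor 7. CD29H CD24L cells were the highest in tumors 2 and 7 but not in tumor 1, where CD29H CD24H cells read 827 against 805 units. The difference of CD29H CD24H from CD29H CD24L cells was −0.84 ± 0.34 (limma adjusted p = 0.462, and 0.178 with the block), and the groups overlapped.

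The feedback genes were each highest in CD29H CD24L cells in tumor 7, whereas in tumors 1 and 2 Nkd1 and Lgr5 were highest in CD29H CD24H cells and Axin2 in CD29L CD24H cells. Nkd1 read 474, 359, 366 and 168 units in tumor 1. It read 723, 218, 381 and 417 units in tumor 2, and 42.9, 119, 32.1 and 98.6 units in tumor 7. In tumor 7, Nkd1 in CD29H CD24H cells lay below both CD24 low populations. Axin2 read 1548, 1178, 2999.7 and 1130.1 units in tumor 1. It read 713, 513, 731 and 636 units in tumor 2, and 154, 203, 184 and 184 units in tumor 7. Axin2 in CD29L CD24H cells of tumor 1 was the highest of the 17 sorted arrays. Lgr5 read 183, 132, 108 and 82.3 units in tumor 1. It read 254, 107, 121 and 118 units in tumor 2, and 51.7, 109, 85.4 and 12.0 units in tumor 7.

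Counted over the 7 comparisons among tumor populations, limma without a block called 0 of the 10 genes in each. CD29H CD24H against the mean of the other 3 populations had a background of 0.0% of genes called. At an unadjusted p under 0.05 were 0 of the 10 and 6.97% of all genes. With the block 0 of the 10 passed against 0.76%, and 1 had an unadjusted p under 0.05, as did 16.4% of all genes. Against CD29H CD24L cells the background was 2.17%, with 2 of the 10 at an unadjusted p under 0.05, as were 8.68% of all genes. Against CD29L CD24H and CD29L CD24L cells the background was 0.0% and 0.0366%, with 0 and 0 of the 10 below 0.05 unadjusted. Of all genes, 2.6% and 6.19% were below 0.05 there. CD29H CD24L against CD29L CD24L cells had a background of 1.08% and 1 of the 10 below 0.05 unadjusted. CD29L CD24H against CD29L CD24L cells had 0.0183% and 0, and the interaction of the gates 0.0% and 0. The shares of all genes below 0.05 unadjusted were 8.61%, 3.19% and 5.93%, in the same order. With the block, 1 of the 10 passed in each of the comparisons described for Dkk3. The blocked count was 0 in the other 5, against 0.00916% of genes for CD29H CD24H and CD29L CD24H cells, 0.522% for CD29H CD24H and CD29L CD24L cells, 0.0824% for CD29L CD24H and CD29L CD24L cells, and 1.91% for the interaction. For CD29H CD24H against CD29L CD24H cells the 95% intervals without the block ran from −2.29 to 3.25 for Wif1 and from −0.68 to 0.81 for Sfrp1. With the block they ran from −0.19 to 1.15 and from −0.62 to 0.75.

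The CD29 gate difference among CD24 high cells was smaller in tumors than in normal cells for most of the genes. It compares CD29H CD24H minus CD29L CD24H in tumors with CD29H CD24P minus CD29P CD24H in normal cells. In limma over all 17 sorted arrays, 3 of the 10 genes passed, all with a lower difference in tumors, against a background of 2.49% of genes. Dkk3 had a difference of 0.17 in tumors and 5.10 in normal cells (tumor minus normal −4.93 ± 0.71, adjusted p = 0.00208). Wnt10a had 0.59 and 3.97 (−3.38 ± 0.76, adjusted p = 0.0266). Lgr5 had 0.35 and 3.50 (−3.16 ± 0.76, adjusted p = 0.0389).

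With tumor and preparation as a block, 8 of the 10 passed against a background of 10.3% of genes, 7 with a lower and 1 with a higher difference in tumors. The added genes were Wif1 (−5.58 ± 0.48, limma adjusted p = 4.83e-06), Nkd1 (−3.62 ± 0.69, adjusted p = 0.00257), Axin2 (−2.64 ± 0.48, adjusted p = 0.00179), Sfrp1 (−1.90 ± 0.49, adjusted p = 0.0194) and, in the other direction, Wnt5b (1.55 ± 0.46, adjusted p = 0.0438). Wnt6 (−1.91 ± 0.67, adjusted p = 0.0900) and Wnt5a (1.00 ± 0.55, adjusted p = 0.309) did not pass. The second Wnt5a probe set passed without the block (2.08 ± 0.51, limma adjusted p = 0.0446). Sfrp1, whose chosen probe set gave an adjusted p of 0.0588 without the block, passed with its second (−3.54, limma adjusted p = 0.0104). It also passed there with the mean of its probe sets (−1.95, adjusted p = 0.0150) and with an offset of 1 (−2.07, adjusted p = 0.0482). Of the 15 other probe sets of the 10 genes, 3 passed without the block. The blocked calls of Wif1, Dkk3, Nkd1, Wnt10a, Axin2 and Lgr5 were kept in all 17 fits with 1 array left out. Sfrp1 was lost when tumor 7 gave no CD29H CD24H array, when tumor 1 gave no CD29L CD24H array, or without any of the 4 normal epithelial arrays (adjusted p 0.0518 to 0.213), and Wnt5b was kept in 4 of the 17 (adjusted p up to 0.308).

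The unblocked calls of Wnt10a and Lgr5 depended on the processing. With quantile normalization both were lost (limma adjusted p = 0.0537 for Wnt10a, and −2.80, adjusted p = 0.0820, for Lgr5). Lgr5 was also lost with an offset of 1 (−4.11, adjusted p = 0.0898) and with its second probe set (−0.76 ± 0.80, adjusted p = 0.802). With arrays left out, Dkk3 was lost without preparation 1 or 2 (limma adjusted p = 0.0880 and 0.0817). Wnt10a was lost when tumor 7 gave no CD29H CD24H array or tumor 1 no CD29L CD24H array, and without either normal CD29H CD24P array, the preparation 1 CD29P CD24H array, tumor 1, tumor 2, or either preparation (−4.20 to −2.55, adjusted p 0.0609 to 0.517). Lgr5 passed in 8 of 22 omissions (−3.52 to −2.63); it was lost without any of the 4 normal epithelial arrays, either preparation, tumor 1, tumor 2, the array of CD29L CD24H cells from tumor 1 or 2, the array of CD29H CD24H cells from tumor 7, or any of the 3 CD29H CD24L arrays (adjusted p 0.0530 to 0.388). Without tumor 7 Wif1 and Nkd1 passed as well (adjusted p = 0.0101 and 0.0125), for a count of 5. The share of all genes that passed in that fit is not given here. The basal marker list moved with these genes. Of its 8 genes 3 passed as lower in the same test without the block and 8 with it, and the list stood at 7.16 to 10.76 in tumor CD29H CD24H cells and at 7.14 to 10.02 in CD29L CD24H cells.

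**Figure D2:**
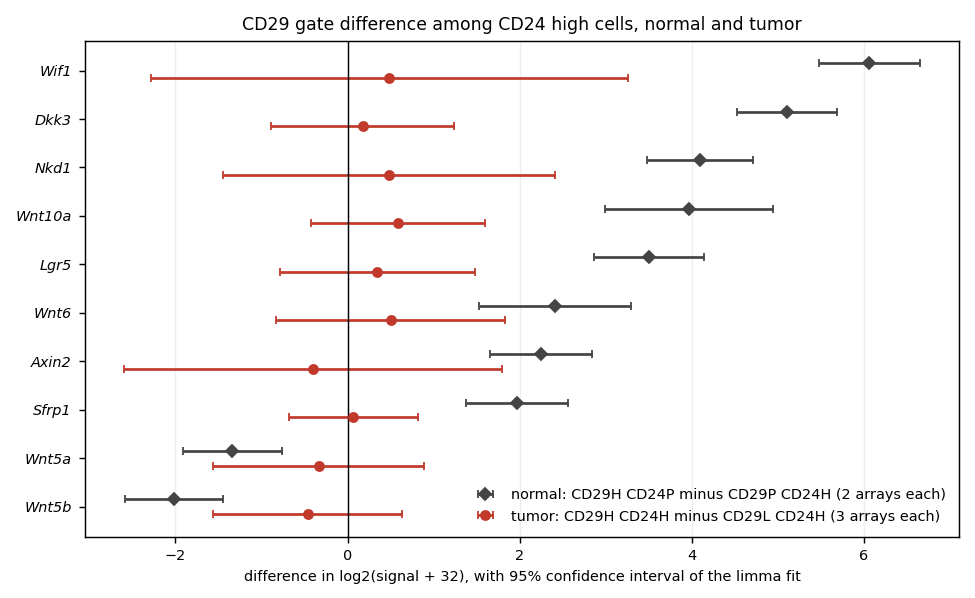
Difference in log2(signal + 32) between CD29 high and CD29 lower cells among CD24 high cells, for normal cells (dark diamonds, 2 arrays per gate) and tumors (red circles, 3 arrays per gate), with 95% confidence intervals of the limma fits without a block. Normal differences span −2.01 for Wnt5b to 6.06 for Wif1, whereas every tumor interval contains 0.

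Wif1, Axin2 and Nkd1 varied mainly between tumors. In tumor 7 Wif1 lay at 332 to 610.0 units, against 1895 to 8774 in tumors 1 and 2. Axin2 lay at 154 to 203 units against 513 to 2999.7, and Nkd1 at 32.1 to 119 against 168 to 723. For these 3 of the 10 genes every tumor 7 array lay below every array of the other tumors, as it did for 4.3% of all genes tested. None of the 10 lay wholly above, and over both directions 8.96% of all genes were separated in this way. These are signals of the chosen probe sets, and Wif1 has no other. The other Nkd1 and Axin2 probe sets were under the low-signal filter. Those ranked 2 and 4 by brightness for Nkd1 and 2 for Axin2 had their lowest sorted signal in tumor 1 or 2 (6.41, 1.91 and 3.25 units). Nkd1 probe set 3 had it in tumor 7 (4.31 units). The separation is a description of 1 tumor, with no test. Tumor 7 also differs in carrying no transplant generation in its label, and the source of the difference cannot be told apart from the tumor itself.

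The share of the sum of squares over the 12 tumor arrays that lay between tumors was 94.1% for Wif1, 92.3% for Axin2 and 76.1% for Nkd1, against a median of 38.4% over all genes. The same share was 64.7% for Wnt10a, 61.1% for Wnt5b, 51.6% for Wnt5a, 48.8% for Wnt6 and 43.8% for Lgr5. Sfrp1 and Dkk3 were the opposite case, with 0.301% and 18.8% between tumors. The share between populations was 63.5% for Sfrp1 and 62.1% for Dkk3, and the median over all genes was 23.3%. Basal markers moved with tumor 7: the mean log2 level of the 8 genes was 7.14 to 7.72 there and 9.21 to 10.76 in tumors 1 and 2. The luminal list went the other way, at 10.87 to 11.06 in tumor 7 and 8.85 to 10.13 in tumors 1 and 2. The part of basal or luminal cells in the levels of the Wnt genes was not tested. Wnt5b did not follow the basal markers, with a median of 521 units in tumor 7, 295 in tumor 1 and 199 in tumor 2.

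**Figure D3:**
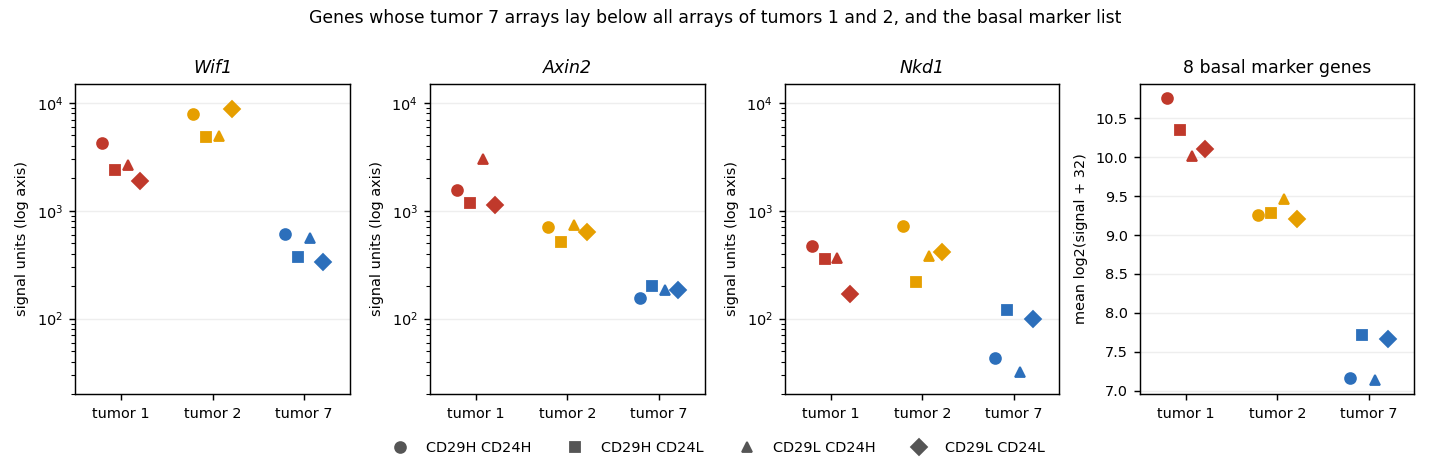
Signal of Wif1, Axin2 and Nkd1 (log axis, signal units) and the mean log2(signal + 32) of 8 basal marker genes on the 12 tumor arrays, by tumor of origin, with 1 symbol per sorted population. Tumor 7 lies at 332 to 610.0 units for Wif1, 154 to 203 for Axin2 and 32.1 to 119 for Nkd1, below all arrays of tumors 1 and 2, and its basal list lies at 7.14 to 7.72.

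Against normal epithelium as a whole, the tumors showed no called change in the chosen probe sets of the 10 genes. With 1 mean per tumor (n = 3) and 1 per preparation (n = 2), limma called 0 of the 10 while 7.32% of all genes passed, and 3 of the 10 had an unadjusted p under 0.05, as did 26.8% of all genes. These were Wnt5a (−1.45 ± 0.40, adjusted p = 0.0714), Wnt5b (−1.28 ± 0.38, adjusted p = 0.0889) and Sfrp1 (0.88 ± 0.26, adjusted p = 0.0833). The second Wnt5a probe set, with 39.4 to 212 units in tumors and 488 to 2672 in normal epithelium, passed (−3.04 ± 0.27, limma adjusted p = 0.00513). The third Sfrp1 probe set by brightness passed as well (1.31, limma adjusted p = 0.0395), so that the calls of both genes depend on the probe set. Of the 15 other probe sets of the 10 genes, 3 passed. Leaving out tumor 7 gave 4 calls: Wif1 higher (3.07, adjusted p = 0.00971), Axin2 higher (1.94, adjusted p = 0.0341), Wnt5b lower (−1.59, adjusted p = 0.0218) and Wnt5a lower (−1.09, adjusted p = 0.0468). The share of all genes that passed without tumor 7 is not given here, so these 4 have no background. Markers of other cells moved with this comparison: 11 of 13 fibroblast, 5 of 9 macrophage and 1 of 1 adipocyte genes passed as higher in the tumors, and their part in these differences was not tested.

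Set against the normal population of the most alike gate, tumor CD29H CD24H cells had 2 of the 10 genes lower and 0 higher than normal CD29H CD24P cells, where 9.59% of all genes passed. Dkk3 lay at 86.7 to 499 units in the tumors and at 1286 to 1314 in the normal cells (−2.43 ± 0.50, limma adjusted p = 0.00787), and its second probe set passed as well (−2.96 ± 0.33, adjusted p = 0.000192). Lgr5 lay at 51.7 to 254 units against 583 to 724 (−1.98 ± 0.53, adjusted p = 0.0316), but its second probe set did not pass (−0.56 ± 0.57, adjusted p = 0.569) and the call was lost with an offset of 1 (−2.27, adjusted p = 0.0989). Wnt5a did not pass with the chosen probe set (−1.14 ± 0.58, limma adjusted p = 0.230) but did, as lower, with its probe sets 2 (−2.37 ± 0.36, adjusted p = 0.00120) and 4 (−1.43 ± 0.43, adjusted p = 0.0471) by brightness. For 6 of the 10 genes the tumor and normal signals did not overlap, namely Dkk3, Lgr5, Wnt5a, Wnt6, Wnt10a and Nkd1, all lower in the tumors, while 47.4% of all genes were separated in either direction. Wif1 (−0.53 ± 1.32), Axin2 (0.03 ± 1.04), Sfrp1 (−0.33 ± 0.35) and Wnt5b (−0.25 ± 0.52) overlapped. Both calls were lost without either normal CD29H CD24P array or either preparation (adjusted p 0.0848 to 0.141 for Dkk3 and 0.145 to 0.319 for Lgr5), and Lgr5 also without the tumor 7 CD29H CD24H array (−1.46, adjusted p = 0.0874) or tumor 1 (−2.14, adjusted p = 0.0795). The basal list moved with them, at 7.16 to 10.76 in the tumor cells against 13.66 to 13.69, with 5 of 8 genes passed as lower.

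Tumor CD29L CD24H cells differed from normal CD29P CD24H cells in 6 of the 10 genes, where 8.77% of all genes passed. Higher in the tumors were Wif1 (563 to 4909 against 24.4 to 32.7 units, 5.05 ± 1.32, limma adjusted p = 0.0288), Dkk3 (2.50 ± 0.50, adjusted p = 0.00731), Wnt10a (2.23 ± 0.53, adjusted p = 0.0200) and Sfrp1 (1.58 ± 0.35, adjusted p = 0.0127). Lower were Wnt5a (157 to 420.0 against 1108 to 1300.4 units, −2.14 ± 0.58, adjusted p = 0.0336) and Wnt5b (328 to 572 against 1624 to 1626 units, −1.79 ± 0.52, adjusted p = 0.0441). The signs are those of the normal basal-type gate against the luminal-type gate, and both comparisons use the same CD29P CD24H arrays. Axin2 (2.67 ± 1.04, adjusted p = 0.128), Lgr5 (1.18 ± 0.53, adjusted p = 0.186) and Nkd1 (1.66 ± 0.92, adjusted p = 0.277) passed only without tumor 7 (adjusted p = 0.00507, 0.0406 and 0.00437), apart from Axin2, which also passed without the tumor 7 CD29L CD24H array (adjusted p = 0.0459). Wnt6 had a difference of 0.42 ± 0.66.

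These 6 calls depend on the 2 normal CD29P CD24H arrays. Without the array of preparation 1, or without either preparation, 0 of the 6 passed, and without the array of preparation 2 only Wnt10a did. Dkk3 and Sfrp1 were kept in the other 18 of 22 omissions. Wif1 was lost also without the CD29L CD24H array of tumor 1 or 2, or tumor 1 (adjusted p 0.0673 to 0.116); Wnt10a without that array of tumor 1, tumor 1 or tumor 2 (0.0555 to 0.0845); and Wnt5a without that array of tumor 1 or 7, or tumor 1 (0.0523 to 0.0877). Wnt5b was kept in 9 of 22; it was lost also without any of the 3 tumor CD29L CD24H arrays, the CD29H CD24H or CD29H CD24L array of tumor 1, either normal CD29H CD24P array, tumor 1 or tumor 2 (0.0545 to 0.122). Other settings lost calls too. With only the 2 groups compared, Sfrp1 (limma adjusted p = 0.0623) and Wnt10a (0.0795) did not pass. With other probe sets by brightness, Sfrp1 (rank 4, limma adjusted p = 0.135, and 5, 0.301), Wnt5a (rank 3, 0.374) and Wnt5b (rank 2, 0.0745) did not. Of these only the Wnt5b probe set was above the low-signal filter. Among all 15 other probe sets of the 10 genes 5 passed with the same sign, and of the 5 above the filter 4 did. The larger offset of 128 lost Wif1 (0.0712), Wnt10a (0.0523) and Dkk3 (0.0523). Wnt5b was also lost with an offset of 1 (0.057), quantile normalization (0.0553) or no filter (0.0665). Fibroblast and macrophage markers moved with this comparison, with 7 of 13 and 5 of 9 genes passed as higher in the tumors, and 5 of 10 luminal genes passed as lower.

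The rest of the pathway was followed through 85 listed genes, of which 83 were on the array and 59 passed the low-signal filter; the 5 R-spondin and norrin genes did not. In the normal comparison 26 of the 59 passed in limma, 20 higher and 6 lower in CD29H CD24P cells, where 27.4% of all genes passed. Fzd7 (3.12 ± 0.26, adjusted p = 3.02e-05), a Frizzled receptor, and Nkd2 (2.96 ± 0.39, adjusted p = 0.000506), a paralogue of Nkd1, were the most raised. Wnt4 (−3.21 ± 0.30, adjusted p = 6.05e-05), a ligand of luminal progesterone-responsive cells, was lowered, and Sostdc1 (2.77 ± 0.36, adjusted p = 0.000421), a secreted inhibitor of Wnt and BMP signals, was raised. By role, 9 of 16 receptors passed as higher and 1 as lower, and 7 of 10 further target genes passed as higher. Of 13 cytoplasmic components 0 passed as higher and 2 as lower, a smaller share than over all genes. Wnt ligands were mixed, with 1 higher and 2 lower of 6.

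**Figure D4:**
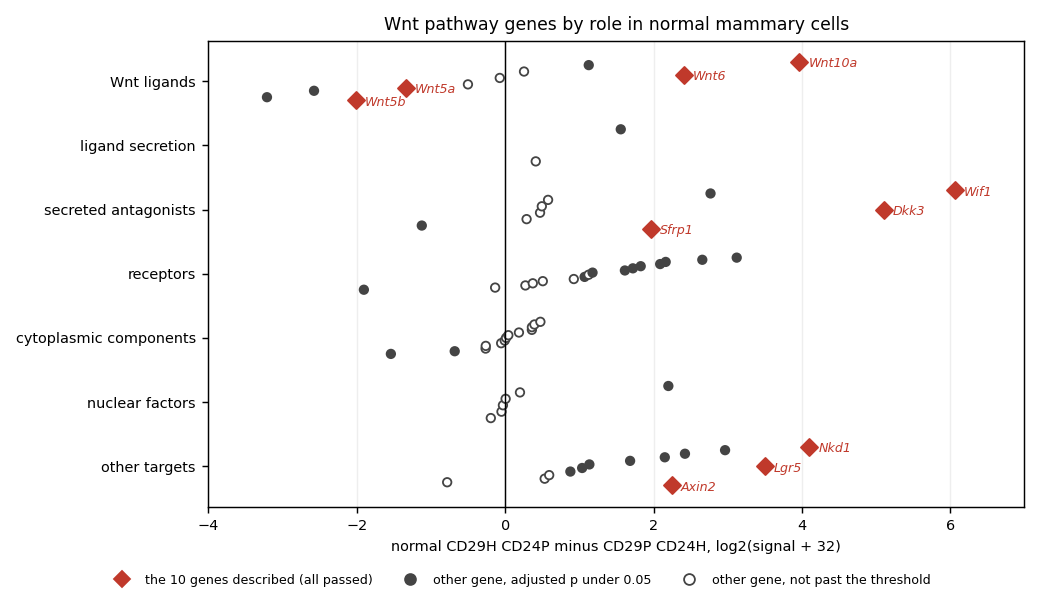
Difference in log2(signal + 32) between normal CD29H CD24P and CD29P CD24H cells (x axis) for the 10 genes described (red diamonds) and 59 other Wnt pathway genes (circles, filled where the limma adjusted p was under 0.05), by role. The 10 genes run from −2.01 for Wnt5b to 6.06 for Wif1, and the 59 others from −3.21 for Wnt4 to 3.12 for Fzd7.

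In tumors, Ccn4 and Dkk2 differed between the same gates as Dkk3. Ccn4, a matricellular Wnt target, was lower in CD29H CD24H than in CD29H CD24L cells (−3.11 ± 0.41, limma adjusted p = 0.00394) and higher in CD29H CD24L than in CD29L CD24L cells (2.46 ± 0.41, adjusted p = 0.0201). Dkk2, an antagonist of LRP co-receptors, differed by −2.71 ± 0.51 (adjusted p = 0.0148) and 2.37 ± 0.51 (adjusted p = 0.0465). Without the block they were the only 2 of the 59 to pass in these comparisons, where 2.17% and 1.08% of all genes passed. The fibroblast markers moved in the same comparisons as given above. With the block 5 and 4 of the 59 passed, against the 5.08% and 4.49% of all genes given for Dkk3. The added antagonists were Sfrp2 (−2.37, limma adjusted p = 0.0188, and 2.05, adjusted p = 0.0498) and Sfrp4 (−2.39, adjusted p = 0.00621, and 2.25, adjusted p = 0.0114), and the ligand Wnt9a was added in the first comparison (−2.13, adjusted p = 0.00889; 0.165 in the second), and is named after its value was seen. In the interaction of the gates 0 of the 59 passed without the block and 3 with it, where 0.0% and 1.91% of all genes passed. All 3 were lower: Ccn4 (−2.52, limma adjusted p = 0.0234), Dkk2 (−3.40, adjusted p = 0.0182) and Sfrp4 (−3.04, adjusted p = 0.0340). The CD29 gate difference was lower in tumors than in normal cells for Fzd7 (−3.78 ± 0.54, limma adjusted p = 0.00200) and Nkd2 (−3.56 ± 0.66, adjusted p = 0.00966) and higher for Wnt4 (3.19 ± 0.55, adjusted p = 0.00627). These were 3 of the 59, where 2.49% of all genes passed. With the block 2 of the 59 passed as higher and 7 as lower, where 10.3% of all genes passed. Between all tumors and normal epithelium 9 passed, against 7.32% of all genes, 7 higher and 2 lower, among them Sfrp2 (2.61 ± 0.54, adjusted p = 0.0356), a relative of Sfrp1, and Fzd3 (−1.76 ± 0.34, adjusted p = 0.0288).

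Against the gates of normal cells the same list gave 4 and 10 calls among the 59, where 9.59% and 8.77% of all genes passed, so that the 4 are a smaller share than over all genes. Tumor CD29H CD24H cells had Fzd3 (−2.79 ± 0.53, limma adjusted p = 0.00501) and Wnt11 (−1.74 ± 0.47, adjusted p = 0.0320) lower, and the nuclear factors Bcl9 (1.64 ± 0.41, adjusted p = 0.0233) and Lef1 (1.64 ± 0.45, adjusted p = 0.0331) higher, than normal CD29H CD24P cells. Tumor CD29L CD24H cells had 8 higher and 2 lower than normal CD29P CD24H cells, with Nkd2 (3.82 ± 0.47, adjusted p = 0.000244), Fzd7 (3.19 ± 0.38, adjusted p = 0.000216) and Lgr4 (2.91 ± 0.65, adjusted p = 0.0127) higher and Wnt4 (−2.76 ± 0.39, adjusted p = 0.000788) lower.

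The genes whose pattern over the 17 sorted arrays was most like that of each gene were found by the root mean square difference of log2 values, after each gene's mean was subtracted. Moxd1 (0.87), Bcl11b (1.05) and Krt14 (1.06), a basal keratin, were the nearest to Wif1, whose own spread about its mean was 2.40. Sema3c (0.48), Niban1 (0.50) and Gpc6 (0.59) were nearest to Dkk3, with its own spread at 1.52. For Sfrp1 they were Slc12a4 (0.31), St3gal2 (0.37) and Dennd2a (0.37), against its own spread of 0.81. Col7a1, the anchoring fibril collagen, was among the 3 nearest to both Nkd1 (0.59) and Lgr5 (0.51), and Lgr5 itself ranked 14 for Nkd1 (0.74). The nearest to Axin2 was Lmo4 (0.55), to Wnt5a Rras2 (0.56), to Wnt5b Chdh (0.42), to Wnt6 Stox2 (0.53) and to Wnt10a Emb (0.44). The arrays share their tumors and preparations, and these values are given as a description.

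Ordered by mean signal over the 6 replicated groups, the normal CD29P CD24H cells were at one end for all 10 genes and the normal CD29H CD24P cells at the other for 5 of the 10. The CD29P CD24H signals did not overlap those of the next group for 8 of the 10, with Wnt6 and Lgr5 as the exceptions. The shares of all genes with such orders and separations were not computed. With few arrays separation was common, at 64.4% of all genes between the 2 normal gates. The CD29H CD24P signals were the highest for Wnt6, Wnt10a, Dkk3, Nkd1 and Lgr5, and the tumor populations next to each other in that order overlapped for every gene except Dkk3, where CD29H CD24L cells stood apart from both neighbours. The array of normal CD24 low cells, with its fibroblast markers, gave 2106 units of Sfrp1 and 1212 of Dkk3, and 30.2 of Wnt5b and 33.6 of Wif1. The reference RNA gave 691 units of Wnt10a and 1.83 of Wif1.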

How the data were processed

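RNA of 12 tumor, 5 normal and 1 reference sample was measured on 18 one-colour arrays. The authors deposited intensity values per probe set on a linear scale; GCOS is named in the submitters' processing notes, with no version, and the genome build and summarization settings are not given in the sources used here. The trimmed mean (2% at each end) is equal on all arrays, so that the values were already scaled. Of 45101 probe sets, 64 controls were left out, 34945 have 1 symbol in the platform annotation, 932 several and 9160 none. Here log2(value + 32) was taken, each gene was read from its brightest probe set on average over the 17 sorted arrays, and a filter dropped the dimmest 40% of genes, which leaves 10916 of 18193.

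Groups were compared with limma 3.58.1 (R 4.3.3) and Benjamini-Hochberg adjustment over all 10916 genes; plots were made in Python 3.11.15 (matplotlib 3.10.9), and the fits were tested on simulated data. Tumor populations were fitted over the 12 tumor arrays, normal ones over the 5 normal arrays, tumors against normal epithelium on means per tumor and preparation, and the other comparisons over all 17. Same-numbered tumor arrays come from 1 tumor: the correlation of their departures from group means was 0.389 to 0.727 in 18 pairs, against −0.462 to −0.0441 in 36 pairs across tumors, and at 0.0623 in the 1 pair from a normal preparation. Departures cancel out within each group, so positive values within tumors force negative ones across them, which are no separate observation. The fit with this number as a block is given where it changes a call or a count by over 1.5 times. The labels do not say whether the normal preparations are separate animals, so p-values there measure only the spread between these samples.

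The genes and lists were chosen with earlier results of these data known. Named besides the 10 genes are up to 4 other pathway genes per comparison, by absolute difference among those that passed, and up to 3 most alike genes per gene. Alternatives were the offset, scaling, filter, probe set, variance trend, block, arrays in the fit and each array, tumor or preparation left out; the actin ratio as a covariate, omission of the tumor arrays of lowest actin ratio, and omissions in the blocked fit were added after seeing the data.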

Additional observations from a re-analysis of the deposited data

Results flagged for a closer look

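The CD29 gate difference among CD24 high cells differed between tumor and normal cells in limma for 3 of the 10 genes without a block and 8 with it. Of all genes, 2.49% and 10.3% passed. Without a block the genes were Dkk3 (tumor minus normal, −4.93 on the log2 scale), Wnt10a (−3.38) and Lgr5 (−3.16). With tumor and preparation as a block Wif1 (−5.58), Nkd1 (−3.62), Axin2 (−2.64), Sfrp1 (−1.90) and Wnt5b (1.55) were added. The calls of Sfrp1 and Wnt5b were not kept in all fits with 1 array left out. The array of normal CD24 low cells, which is in no comparison, gave 2106 units of Sfrp1, above the 161 to 855 units of the 4 normal epithelial arrays.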

How the results depend on the processing

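The number of the 10 genes called was within 1.5 times that reported except as follows, and the cause was not tested. Apart from the block, the shares of all genes that passed in these alternatives are not given, so the counts have no background. With the replicate block, which pairs arrays by tumor or preparation, the count became 1 for CD29H CD24H against CD29H CD24L, 1 for CD29H CD24L against CD29L CD24L and 8 for the CD29 gate difference; it changed no other count by more. With the mean of a gene's probe sets it became 1 for CD29H CD24L against CD29L CD24L and 2 for tumors against normal epithelium, where a median shift gave 1. With the lowest 60% of genes left out, which removes 5 of the 10 genes, it was 5 for the normal comparison, 0 for tumor CD29H CD24H against normal CD29H CD24P and 0 for the gate difference. For tumor against normal CD29H it was 1 with an offset of 1 and 0 with only the groups compared; for tumor CD29L CD24H against normal CD29P CD24H it was 3 with the larger offset of 128; for the gate difference it was 1 with quantile normalization. With 1 array, tumor or preparation left out, counts ran from 0 to 1 for CD29H CD24H against CD29H CD24L and, with the block, for both comparisons of CD29H CD24L, from 9 to 10 for the normal comparison, from 0 to 4 for tumors against normal epithelium, from 0 to 2 and 0 to 9 for the CD29H and CD29L tumor gates against normal, and from 0 to 5 for the gate difference (6 to 8 with the block); in the other comparisons they were 0 throughout. In the normal comparison, omitting 1 array leaves a gate with a lone array, so that its counts are no test of robustness. Omitting a preparation leaves the normal comparison with no residual degrees of freedom and gives it no value.

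The single-gene values followed here are those of all 10 genes in the comparisons of normal cells, of tumors with normal cells and of the gate difference, and of Wnt5a, Dkk3 and Sfrp1 in the 2 comparisons of CD29H CD24L cells. Among these, signs turned only in differences that did not pass. For tumors against normal epithelium, Dkk3 was −0.0617 with the larger offset and −0.43 with its second probe set. For tumor against normal CD29H cells, Sfrp1 was 0.50 and 0.29 with its probe sets 3 and 5 by brightness, and Axin2 was −0.0129 with offset 1, −0.0706 with a median shift, −0.40 with the mean of probe sets and −0.83 with its second probe set. With arrays, tumors or preparations left out, the differences of tumors from normal epithelium ran from −1.47 to 0.0194 for Wnt6, −0.64 to 1.75 for Wnt10a, −0.84 to 1.75 for Dkk3, −1.26 to 0.82 for Nkd1 and −1.51 to 0.30 for Lgr5. Those of CD29H CD24H tumor from normal cells ran from −0.62 to 0.14 for Wnt5b, −1.29 to 0.53 for Wif1 and −0.67 to 0.88 for Axin2, and Wnt6 in the CD29L comparison from −0.21 to 1.08. Over these values and alternatives, 1435 values kept their direction and side of the threshold, 105 lost the call, 35 gained it and 32 turned sign. In the tumor populations other probe sets did not always have the sign of the chosen one: 7 of 15 shared it for CD29H CD24H against CD29L CD24L, and 7 to 13 over the 7 comparisons. Signals near the filter (90.2 units) limit what could be seen for Lgr5 and Nkd1 in tumor 7.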
